A study of Mus musculus with 18 samples.

Results

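The 6 genes of the early mouse embryo and the germline, Tcstv1, Tcstv3, Zfp352, Ubtfl1, Pramel18 and Spz1, were followed across 18 microarrays of mouse embryonic stem cells (ESCs). They are 6 of the 18193 genes that the array measured with a probe set for 1 gene, and were chosen by their symbols from earlier results of these same arrays, with their changes after doxycycline (Dox) in Max-null cells known. Those changes are therefore given as a description, with no test. Zfp352 had a pair of probe sets and the other 5 members 1 each, so the members rested on 7 probe sets. The label of 2-cell-like and early embryo genes holds for 5 of them, while Spz1 is known as a testis gene and not as a 2-cell gene.

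The study asked how Myc and PI3K signalling act together in ESC self-renewal. Of the 18 samples, 1 array each, 3 were Dox-treated: Max-null ESCs at day 4 and at day 6, and a Max-null line that also overexpresses p110 alpha (a catalytic PI3K subunit), for which the labels give no day of Dox. Each of these lines had 1 untreated sample, and Dox ablates Max expression in them according to the design text. Another 8 samples had received LY294002, an inhibitor of PI3K: parental EBRTcH3 ESCs in serum with LIF at day 2 (1 sample) and day 5 (2 samples), parental ESCs in 2i medium at day 5, and c-Myc-overexpressing derivatives (wild-type or T58A c-Myc) at days 2 and 5. Their untreated references were 2 parental serum samples, 1 parental 2i sample and 1 sample of each c-Myc line. All 18 samples were labelled as male 129SV cells, and EBRTcH3 was given as the cell type of the Max-null lines too; below, EBRTcH3 arrays means the 13 arrays without the Max-null label. Whether a line was 1 clone or a pool is not given in the sources used here. The probe set of Max had 7.09 untreated, 6.89 at day 4 and 7.18 at day 6 in the Max-null line, and 6.33 with Dox against 6.70 untreated in the p110 alpha line, on the log2 scale. It lay between 8.17 and 8.71 in the 13 EBRTcH3 arrays. The probe set was thus lower in all 5 arrays labelled Max-null and did not follow Dox in the Max-null line; whether it lies in the ablated part of the gene is not given in the sources used here.

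Cultures of mouse ESCs hold a rare, transient population called 2-cell-like cells, which transcribe genes that the embryo switches on when its own genome is first activated. The transcription factor Dux, the Zscan4 family and the retrovirus-like element MERVL are its best known components. Max is the dimer partner of the Myc proteins and of Mga, and with Mga it belongs to the polycomb complex PRC1.6, known in ESCs for holding germline genes silent.

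All values are log2 levels computed by the authors with RMA, and a difference of 1 is a 2-fold change. A floor of 4.64, which 40 percent of the table's values do not exceed, is used below; under it a probe set is taken as near background. The 4 arrays of the 2i pair and of parental serum replicate 1 had medians between 5.03 and 5.05, and the other 14 between 5.31 and 5.52, so levels are set across these sets of arrays with caution. All 10 ESC markers, among them Pou5f1, Sox2 and Nanog, lay above the floor in all 18 arrays. In bulk samples such as these, more cells with a transcript and more transcript per cell cannot be told apart.

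Before the values, 3 of the 6 members had a promoter in the RefSeq table used (mouse build GRCm38.p6, 250 bases before to 50 bases after the start of the gene). Their sequences are shown because the levels of the 3 genes were all higher with Dox. Tcstv1, Tcstv3 and Pramel18 are named only. The windows are chr4:90218570-90218869 on the plus strand for Zfp352, chr9:18404168-18404467 on the plus strand for Ubtfl1 and chr13:92576183-92576482 on the minus strand for Spz1. In Zfp352, capitals mark copies of a repeated 12-base unit and 1 TATAA.
Zfp352: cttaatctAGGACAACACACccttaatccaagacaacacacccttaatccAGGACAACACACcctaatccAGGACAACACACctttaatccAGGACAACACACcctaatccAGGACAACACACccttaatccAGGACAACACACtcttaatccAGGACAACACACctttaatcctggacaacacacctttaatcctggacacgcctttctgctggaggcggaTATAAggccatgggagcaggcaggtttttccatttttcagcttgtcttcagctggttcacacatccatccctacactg
Ubtfl1: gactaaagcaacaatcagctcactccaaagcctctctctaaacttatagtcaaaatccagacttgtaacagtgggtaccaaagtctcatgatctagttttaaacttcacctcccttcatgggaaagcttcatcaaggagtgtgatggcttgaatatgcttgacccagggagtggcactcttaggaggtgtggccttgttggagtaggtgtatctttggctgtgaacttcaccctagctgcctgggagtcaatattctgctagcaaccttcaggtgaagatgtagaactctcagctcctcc
Spz1: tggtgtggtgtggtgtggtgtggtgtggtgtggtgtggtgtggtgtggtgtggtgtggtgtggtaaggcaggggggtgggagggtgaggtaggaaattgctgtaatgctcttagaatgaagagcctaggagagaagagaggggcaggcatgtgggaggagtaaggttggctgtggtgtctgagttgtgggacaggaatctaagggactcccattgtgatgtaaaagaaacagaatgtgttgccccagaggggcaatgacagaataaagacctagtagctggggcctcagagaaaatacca
The Zfp352 window held the unit AGGACAACACAC 7 times on the strand shown, and no run of its length was more frequent there. Of 32851 promoters searched on both strands, 1 held this unit. Its TATAA began at position -28 relative to the start. TATAA was present on either strand in 24.9% of promoters; the Ubtfl1 window held it only on the opposite strand and the Spz1 window did not hold it. The letters CACGTG, the E-box that Myc and Max bind, stood in 7.15% of all promoters and GCGGGAA, an E2F motif, in 4.6%, and neither stood in these 3 windows. The GC content was 47.0% for Zfp352, 46.0% for Ubtfl1 and 52.3% for Spz1, beside a median of 52.7% over all promoters. The numbers of CpG were 2, 0 and 0 in the same order, beside a median of 7.

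Tcstv1 and Tcstv3 are related genes on chromosome 13 that are transcribed at the 2-cell stage and have been reported to act on telomeres in mouse ESCs. In the Max-null line Tcstv1 had a level of 4.11 untreated, 10.94 at day 4 of Dox and 11.13 at day 6. The p110 alpha line had 4.67 with Dox, against 3.84 untreated. Over the 13 EBRTcH3 arrays its lowest level was 2.28, its median 3.09 and its highest 3.21. Both Max-null Dox arrays thus stood far above the other 16. The EBRTcH3 arrays and both untreated Max-null samples lay under the floor. The differences from the untreated sample were 6.83 at day 4 (114-fold), 7.02 at day 6 (130-fold) and 0.84 (1.79-fold) in the p110 alpha line.

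Tcstv3 had 3.78 untreated, 10.56 at day 4 and 11.52 at day 6 in the Max-null line. With Dox it had 4.67 in the p110 alpha line, against 3.52 untreated. The EBRTcH3 arrays ran between 2.46 and 3.21 with a median of 2.83, and like both untreated Max-null samples they lay under the floor. The differences were 6.78 at day 4 (110-fold), 7.74 at day 6 (214-fold) and 1.15 in the p110 alpha line (2.22-fold). Because these genes resemble each other, how much signal their probe sets share cannot be told apart on these arrays.

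Zfp352, a zinc finger gene on chromosome 4 that marks the 2-cell stage, was the 1 member with a level above the floor in both untreated samples labelled Max-null. It had 6.81 untreated, 13.02 at day 4 and 13.12 at day 6. Its levels in the p110 alpha line were 8.31 with Dox and 6.50 untreated. The EBRTcH3 arrays ran between 4.22 and 5.13 with a median of 4.42, and 3 of 13 passed the floor. The differences were 6.21 at day 4 (73.8-fold), 6.31 at day 6 (79.4-fold) and 1.82 in the p110 alpha line (3.52-fold). Its second probe set had 6.27 untreated, 12.34 at day 4 and 11.49 at day 6 in the Max-null line, and 7.91 with Dox against 5.82 untreated in the p110 alpha line. The probe sets thus disagreed on the order of day 4 and day 6, but both placed the Max-null Dox arrays above all others.

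Ubtfl1, on chromosome 9, encodes an HMG-box protein of the preimplantation embryo that mouse embryos need around implantation. It had 5.68 untreated, 10.79 at day 4 and 10.82 at day 6 in the Max-null line. The level in the p110 alpha line was 6.83 with Dox, against 4.13 untreated. The EBRTcH3 arrays ran between 2.28 and 3.40 with a median of 2.77. The differences were 5.11 (34.6-fold), 5.14 (35.3-fold) and 2.70 (6.50-fold) for day 4, day 6 and the p110 alpha line, the smallest of the 6 members in the Max-null line and the highest in the p110 alpha line. Its untreated levels in the Max-null lines lay 1.55 apart, more than for any other member, so the size of either difference depends on 1 untreated array.

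Pramel18, on chromosome 4, belongs to the PRAME family of leucine-rich repeat proteins, which is expressed mainly in germ cells and early embryos. It had 4.08 untreated, 11.56 at day 4 and 12.19 at day 6 in the Max-null line. Cells overexpressing p110 alpha had 5.75 with Dox, against 4.30 untreated. The EBRTcH3 arrays ran between 2.51 and 3.26 with a median of 3.01. Its differences of 7.48 at day 4 (178-fold) and 8.11 at day 6 (277-fold) were the largest of any of the 13534 genes above the floor in at least 2 of the 5 arrays. In the p110 alpha line its difference was 1.45 (2.73-fold), and 63 genes had a larger one.

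Spz1, on chromosome 13, encodes a basic helix-loop-helix zipper factor of the testis. It had 3.58 untreated, 9.69 at day 4 and 9.72 at day 6 in the Max-null line. In the p110 alpha line it had 5.59 with Dox, against 3.69 untreated. The EBRTcH3 arrays ran between 2.76 and 3.56 with a median of 3.00. The differences were 6.11 (69.2-fold), 6.15 (70.9-fold) and 1.90 (3.73-fold) for day 4, day 6 and the p110 alpha line. Spz1 and Zfp352 thus lay close to each other in all 3 Dox differences.

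**Figure D1:**
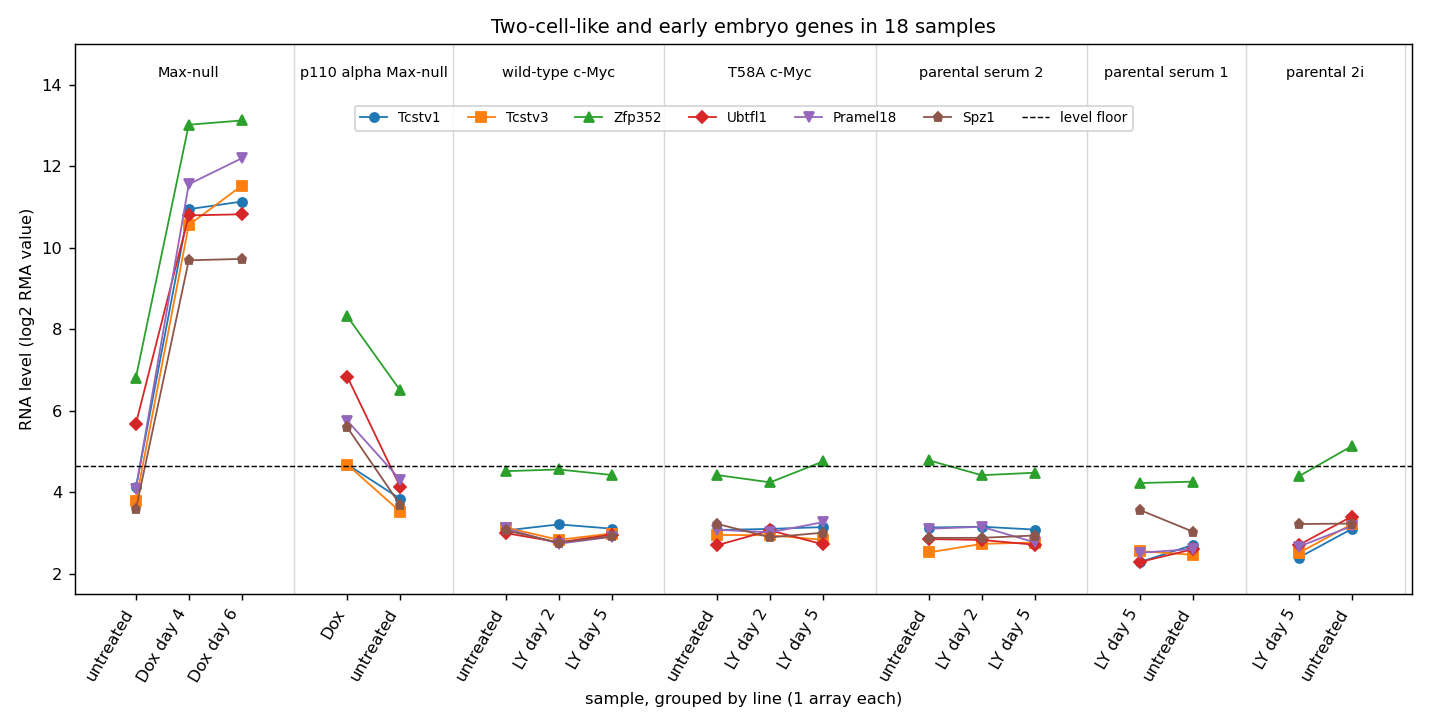
Log2 RMA level of each member (y axis, 1 colour and symbol a gene) in the 18 samples (x axis, grouped by line, lines joining the samples of a line). Each point is 1 array and the dashed line is the floor of 4.64. The Max-null Dox arrays of day 4 and day 6 stand above all others for every gene. The EBRTcH3 arrays lie under the floor, except 3 for Zfp352.

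Set side by side, 6 of 6 members were at least 2-fold higher at both Dox days in the Max-null line, beside 4.34% of the 13534 genes; the choice of members fixed this count, and 4 of the 6 (Tcstv1, Tcstv3, Pramel18 and Spz1) passed the floor only through the Max-null Dox arrays. In the p110 alpha line 5 of 6 were at least 2-fold higher, beside 1.46% of genes, and Tcstv1 was not. Among the 5, Tcstv3 had 3.52 untreated and 4.67 with Dox there, under the floor and barely above it, so its difference lies near background. All 3 Dox samples were at least 2-fold higher for 5 members, beside 0.377% of genes. As the members were chosen with earlier results of these arrays known, the p110 alpha and 3-sample counts are only a description too. The median difference of the members was 6.49 at day 4, 6.66 at day 6 and 1.63 in the p110 alpha line, beside -0.09, -0.12 and 0.07 over all genes. Every member had a smaller difference in the p110 alpha line than at either day, and the p110 alpha difference minus that of day 4 ran from -6.03 (Pramel18) to -2.41 (Ubtfl1) on the log2 scale. With 1 array a condition and the day of Dox in the p110 alpha line not given, these differences have no test. A smaller difference in the p110 alpha line was not particular to the members. Of the 588 genes at least 2-fold higher at both days, only 51 were at least 2-fold higher in the p110 alpha line too. In limma, both lines entered 1 fit (5 samples, line as a block). It counted day 4 and day 6 together as Dox and left 2 residual degrees of freedom. There, 0.0% of the 13534 genes passed a Benjamini-Hochberg adjusted p of 0.05 for Dox in limma, while 701 genes had an unadjusted p under 0.05.

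The members differed less between day 4 and day 6 than between the lines. All 6 were higher at day 6 than at day 4 by their main probe set, by between 0.03 (Ubtfl1) and 0.96 (Tcstv3). The median of the whole array was 0.04 above the untreated one at day 4 and 0.17 above it at day 6, so only the steps of Tcstv1, Tcstv3 and Pramel18 exceeded the step of the array itself. The order of the 6 members by size of difference was not the same in the lines: Ubtfl1 came last at both days and first in the p110 alpha line, where no gene of the 13534 had a larger difference. For Tcstv1, 1 gene had a larger difference at day 4 and 317 genes in the p110 alpha line, where it came last of the members.

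**Figure D2:**
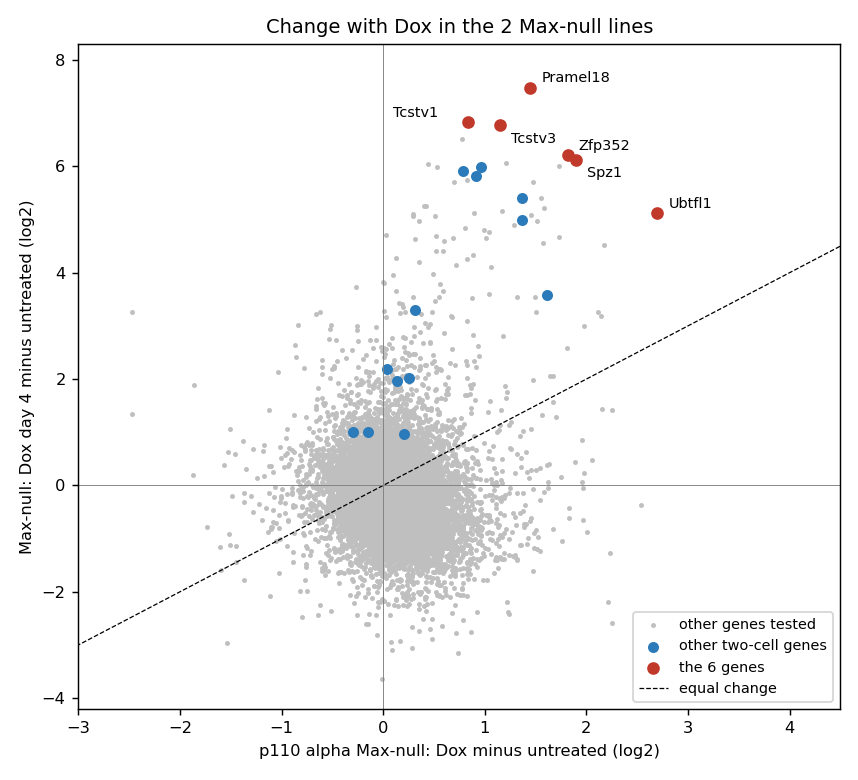
Log2 difference between Dox and untreated at day 4 in the Max-null line (y axis) and in the p110 alpha Max-null line (x axis), 1 point a gene, with the 6 members in red, 13 other 2-cell genes in blue and the rest of the 13534 genes in grey. The dashed line marks an equal difference in both lines; all 6 members lie above it, with Ubtfl1 nearest to it.

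Signs of RNA quality differed with Dox. The 3′ probe set of β-actin stood above its 5′ probe set by 1.10 and 1.16 in the Max-null Dox arrays and by 1.02 in the p110 alpha Dox array, against 0.88 to 0.96 in the untreated Max-null lines; the EBRTcH3 arrays ran between 0.75 and 0.99. For Gapdh the gap was 0.30 and 0.41 in the Max-null Dox arrays and 0.18 in the p110 alpha Dox array, against 0.15 to 0.16 in the untreated ones. The summed signal of the 10 ESC markers was 15.42 to 15.87 on the log2 scale in the Max-null Dox arrays and 15.98 in the p110 alpha Dox array, against 15.88 to 15.91 untreated. Their part in the members' differences was not tested.

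Markers of other cell types differed by less than the members did. Primitive endoderm markers summed to 8.08 to 8.91 in the Max-null Dox arrays and 7.75 in the p110 alpha Dox array, against 7.25 to 7.95 untreated, with 5 of 7 above the floor and 2 at or below it in both Max-null Dox arrays. Trophoblast markers summed to 10.39 to 11.03 in the Max-null Dox arrays and 10.10 in the p110 alpha Dox array, against 10.46 to 10.81 untreated, with 6 of 7 above the floor. Fibroblast markers summed to 8.13 to 8.66 in the Max-null Dox arrays and 8.19 in the p110 alpha Dox array, against 7.80 to 8.59 untreated, with 4 of 8 above the floor. At both days, 2 of 6 endoderm markers above the floor (Foxa2 and Pdgfra) were at least 2-fold higher. So were 1 of 6 trophoblast markers (Krt8) and 1 of 4 fibroblast markers (Col1a2). Pdgfra passed the floor only through the Max-null Dox arrays. Over all 13534 genes, 4.34% were at least 2-fold higher at both days and 7.31% lower. No marker of these lists was 2-fold lower at both days. Others went the other way: the differences at day 4 and day 6 were -0.90 and -1.50 for Tfap2c and -1.03 and -0.07 for Eomes of the trophoblast, -1.57 and -0.84 for Pdgfrb and -0.54 and -0.24 for Thy1 of fibroblasts, and -0.32 and -0.27 for Sox7 of the endoderm. Their part was not tested either.

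Without Dox the members already differed between lines. Both untreated samples labelled Max-null lay above all 4 untreated serum samples of EBRTcH3 cells and their c-Myc derivatives for 6 of 6 members, beside 9.07% of all 18193 genes. Zfp352 had 6.50 and 6.81 in the untreated Max-null lines, against 4.26 to 4.78 in the untreated EBRTcH3 samples, a difference of means of 2.16. Ubtfl1 had 4.13 and 5.68, against 2.60 to 2.99, a difference of means of 2.12. For the other 4 members the means differed by 1.22 (Pramel18), 0.99 (Tcstv1), 0.89 (Tcstv3) and 0.59 (Spz1). Of the 6, Zfp352 was above the floor in both Max-null samples and Ubtfl1 in 1 of them, the Max-null line without p110 alpha. Tcstv1, Tcstv3, Pramel18 and Spz1 were below it in both, so their differences lie near background. The levels had been seen when the members were chosen, and no test was made.

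**Figure D3:**
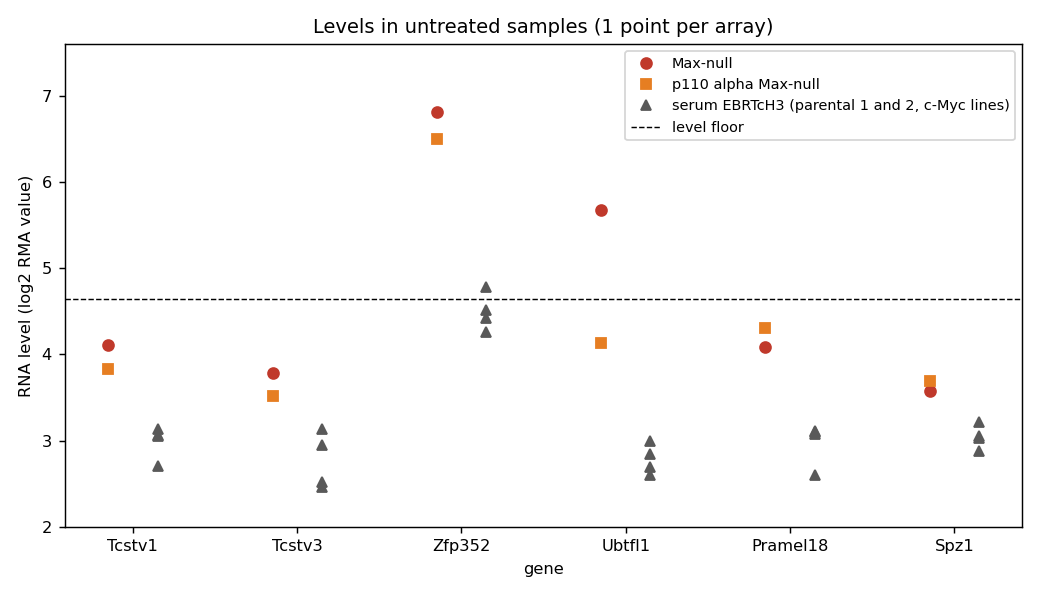
Log2 RMA level (y axis) of the 6 members (x axis) in untreated samples. Red circles are the Max-null line, orange squares the p110 alpha Max-null line and grey triangles the 4 untreated serum EBRTcH3 samples, 1 array each, and the dashed line is the floor of 4.64. For each member the Max-null points lie above all EBRTcH3 points.

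In the EBRTcH3 arrays the members were low both without and with the PI3K inhibitor. With LY294002 in parental replicate 2 and both c-Myc lines (9 samples, line as a block), Zfp352 was the 1 member above the floor in enough samples to be tested. Its change at day 2 was -0.17 ± 0.14 (SE, 3 lines), and limma gave a Benjamini-Hochberg adjusted p of 0.407. At day 5 it was -0.02 ± 0.14, with an adjusted p of 0.916 by limma. Neither passed, while 30.5% of the 13420 genes tested passed at day 2 and 44.1% at day 5. With no floor, 0 of 6 members passed at either day, and the smallest adjusted p in limma was 0.142, for Spz1 at day 2. Tcstv1, Tcstv3, Ubtfl1, Pramel18 and Spz1 lay below the floor in all 13 EBRTcH3 arrays, where a change cannot be read from background.

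In 2i medium, which holds ESCs in a naive state with inhibitors of MEK and GSK3, 1 pair of parental samples was measured. With LY294002 at day 5 in 2i, Zfp352 had 4.39, against 5.13 untreated in 2i. Tcstv1 had 2.39 against 3.09 and Tcstv3 had 2.51 against 3.21 in the same samples. No member was 2-fold lower with LY294002 in 2i, beside 2.23% of 12632 genes that were. All 6 members were lower by some amount, Spz1 by only 0.01. The share of all genes with any difference below 0 was not counted. The median difference of the members was -0.70, beside 0.01 over all genes, so differences below 0 were common among all genes too. These are 2 arrays with no replicate, and Zfp352 untreated was the 1 value above the floor.

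Other genes known from the 2-cell stage were taken from a list of 42 symbols, of which 15 had a probe set for 1 gene; the Zscan4 genes were not analysed here, since their probe sets name several genes. Of 13 above the floor in the Max-null arrays, 10 were at least 2-fold higher at both Dox days and none lower, beside 4.34% of genes higher and 7.31% lower. Of the 13, 6 passed the floor only through the Max-null Dox arrays, 5 of them among the 10, so that count depends in part on the rise itself. Of the other 7, 5 were at least 2-fold higher at both days, beside 3.5% of the 12953 genes that passed without those arrays, a setting chosen after seeing the data. In the p110 alpha line 3 of 13 were at least 2-fold higher, beside 1.46%. Their median difference was 3.29 at day 4, 3.60 at day 6 and 0.31 in the p110 alpha line. None passed an adjusted p of 0.05 in limma. Both untreated Max-null samples stood above all 4 untreated serum EBRTcH3 samples for 8 of 15, beside 9.07% of genes.

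Sp110, a nuclear body protein gene active in 2-cell embryos, had 6.46 untreated, 12.45 at day 4 and 12.41 at day 6, and in the p110 alpha line 6.95 with Dox, against 5.99 untreated. AF067063, a gene of chromosome 13 like the Tcstv genes, had 4.21 untreated, 10.11 at day 4 and 10.88 at day 6, and 4.56 with Dox against 3.77 untreated in the p110 alpha line. Tdpoz1, of a family with TRAF and POZ domains, differed by 5.81 at day 4, 6.21 at day 6 and 0.91 in the p110 alpha line. Arg2, the mitochondrial arginase, differed by 5.39, 5.38 and 1.36 in the same samples. These 4 had the largest median difference of the list over the Dox samples, most of which were of the Max-null line. Each differed less in the p110 alpha line than at either day. The way the 4 were chosen favours such an order, so it is only a description. AF067063 and Tdpoz1 passed the floor only through the Max-null Dox arrays.

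Duxf3, which is Dux, the factor that switches the 2-cell programme on, was named after its values were seen. It had 3.33 untreated, 5.36 at day 4 and 6.01 at day 6 in the Max-null line, and 3.46 with Dox against 3.21 untreated in the p110 alpha line. Duxf3 thus passed the floor only through the Max-null Dox arrays. Of the other activators, Nelfa, an elongation factor subunit that can induce the state in mouse ESCs, had 10.32 untreated, 13.51 at day 4 and 13.77 at day 6, and 10.87 with Dox against 10.21 untreated in the p110 alpha line. Of 3 activators Nelfa alone was 2-fold higher at both days, and Dppa2 and Dppa4, which act upstream of Dux, were not. Of 10 repressors of the state, Setdb1, a histone methyltransferase, was at least 2-fold higher at both days (1.15 and 1.30) and Chaf1b, a chromatin assembly subunit, at least 2-fold lower (-1.09 and -1.32). None of the 10 PRC1.6 genes on the list differed 2-fold at both days. Beside 4.34% of all genes higher and 7.31% lower at both days, these counts of 1 or 0 genes a list show nothing particular to the lists.

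**Figure D4:**
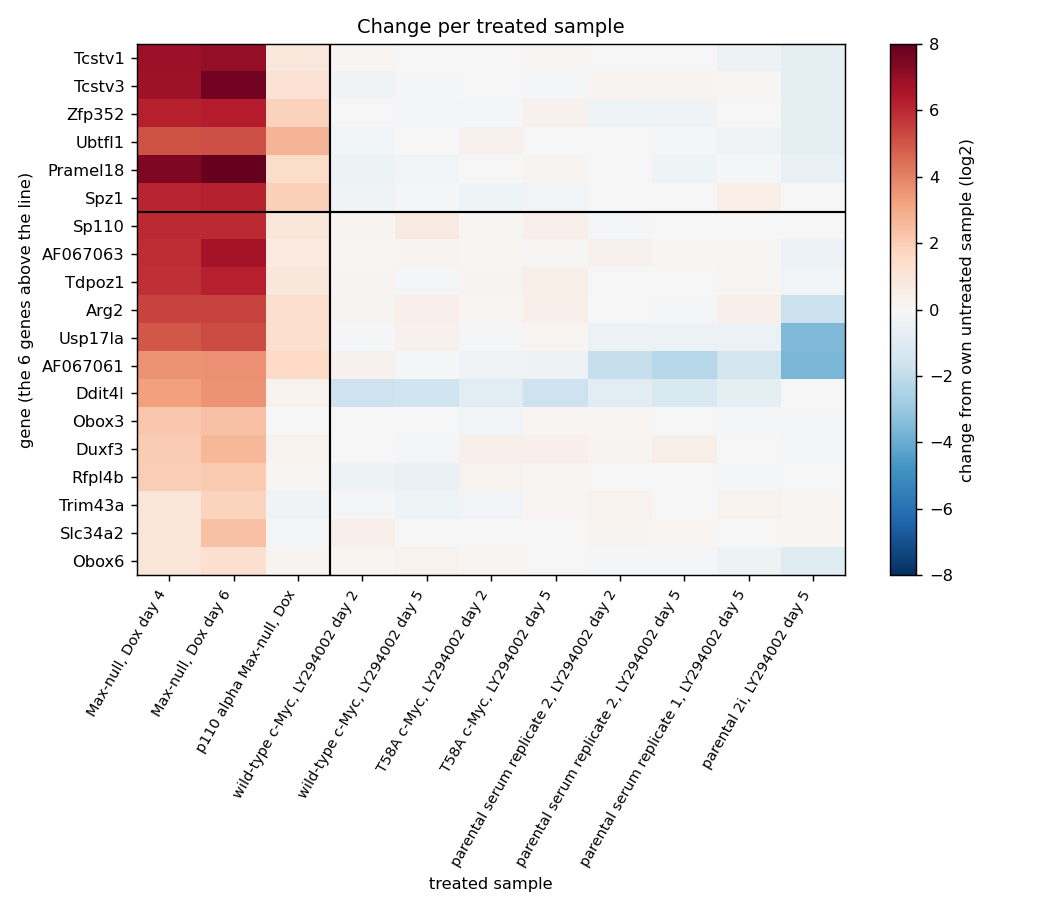
Log2 difference from the own untreated sample, as colour, for the 6 members (above the line) and 13 other 2-cell genes (below it) in each treated sample, with Dox samples left of the vertical line and LY294002 samples right of it. Red is higher and blue lower than untreated; both Max-null Dox columns are deep red for the members, the p110 alpha column is paler, and the LY294002 columns lie within 0.74 of 0 for them.

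Spz1's kind, germline genes of the testis, was examined with a list of 18. Of 17 above the floor, 1 of them only through the Max-null Dox arrays, 15 were at least 2-fold higher at both Dox days, beside 4.34% of genes, and 7 in the p110 alpha line, beside 1.46%; the median difference was 2.36 at day 4, 2.09 at day 6 and 0.59 in the p110 alpha line. Tex101, a germ cell surface glycoprotein, differed by 4.41, 4.97 and 0.52, and was the 1 that passed only through the Max-null Dox arrays. Sycp1, a protein of the synaptonemal complex of meiosis, differed by 4.11, 3.84 and 1.06. Mov10l1, a helicase of the piRNA pathway, differed by 3.55, 3.48 and 1.49, and Slc25a31, a testis ADP/ATP carrier, by 3.26, 3.27 and 2.12. Of 13 oocyte genes above the floor, 4 were at least 2-fold higher at both days and 1 lower. Of these 4, Obox2 (2.56 and 3.45) and Dppa3 (2.46 and 2.34) passed the floor in 2 arrays only through the Max-null Dox arrays. Of the 11 that passed otherwise, 2 were higher at both days, Figla (1.90 and 2.71) and Khdc3 (1.29 and 2.04), beside 3.5% of the 12953 such genes. Of 5 PRAME family genes other than Pramel18, Pramel32 (2.99 and 4.05) and Pramel6 (1.86 and 1.61) were at least 2-fold higher and 3 were not; Pramel32 and Pramel6 passed the floor only through the Max-null Dox arrays.

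With LY294002 the same lists gave the following counts. Of 6 tested 2-cell genes, Ddit4l, an inhibitor of mTOR signalling, fell, with a change of -1.13 ± 0.17 at day 2 (SE, 3 lines, adjusted p = 0.00314 in limma) and of -1.48 at day 5 (adjusted p = 0.000558 in limma), and 5 did not pass. Outside the fit, Ddit4l differed at day 5 by -0.78 in parental serum replicate 1 and by 0.03 in 2i. All 3 PRAME family genes tested rose at day 5, Pramel13 by 0.68, Pramel12 by 0.46 and Pramel1 by 0.31. The day 5 pairs outside this fit differed in direction for Pramel13, with -0.25 in parental serum replicate 1 and -0.75 in 2i, and for Pramel12, with -0.43 and -0.17, while Pramel1 had 0.16 and 0.09. Dppa3, a maternal factor of the early embryo, rose by 2.57 at day 2 (adjusted p = 0.00038 in limma) and by 3.51 at day 5. Outside the fit Dppa3 differed less at day 5, by 0.82 in parental serum replicate 1 and by 1.19 in 2i. Zp3, also of the oocyte list, passed with a change of -0.71 at day 2 and of -1.20 at day 5. In the oocyte list 12 of 14 at day 2 and 9 of 14 at day 5 did not pass. Of the germline list, 5 rose and 3 fell of 16 at day 2, and 5 rose and 5 fell at day 5. Of 10 repressors, 5 rose and 1 fell at day 2, and 4 rose and 1 fell at day 5. Of 10 PRC1.6 genes, 2 rose and 1 fell at day 2, and 3 rose and 1 fell at day 5. Of 3 activators, 0 passed at day 2 and 1 fell at day 5. These counts stand beside 30.5% of all genes that passed in either direction at day 2 and 44.1% at day 5, and the counts of 1 of 6 for the 2-cell list and 2 of 14 for the oocyte list at day 2 are below that share.

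Likeness to the members was measured as Pearson r, over 18 arrays, between a gene's level and the mean standardised level of the 6 members. The 6 genes with the highest r of 14060 were D13Ertd608e (0.998), Gm7969 (0.995), 3110040M04Rik (0.995), Sp110 (0.994), Speer4cos (0.994) and LOC664787 (0.994). D13Ertd608e had 5.15 untreated, 11.21 at day 4 and 11.97 at day 6, and in the p110 alpha line 6.21 with Dox, against 5.01 untreated. The EBRTcH3 arrays of D13Ertd608e ran between 3.37 and 4.18. Among the members r was 0.965 to 0.995 over 15 pairs in 18 arrays, with a median of 0.98, and without both Max-null Dox arrays 0.68 to 0.97 in 16 arrays, with a median of 0.92. In the 13 EBRTcH3 arrays, where nearly all levels lay near background, it was -0.75 to 0.75 with a median of 0.59. These r are a description, since the arrays share lines and processing. Over 18 arrays they rest largely on both Max-null Dox arrays, whose values were known when the members were chosen. A gene far higher in those arrays than elsewhere has a high r, and 100 of the 14060 genes had one above 0.95. For the genes most alike, r without those arrays was not computed.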

How the data were processed

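RNA of 18 ESC samples was measured on Affymetrix arrays. The deposited values are log2 levels. The authors' tools were RMA and affy, per the submitters' processing notes, with versions not given in the sources used here. Of 45101 probe sets, 64 were controls, 34945 named 1 gene in the platform annotation, 932 several and 9160 none. For each of 18193 genes the probe set with the highest mean was used; 9010 genes had several. A gene entered a fit with 2 or more of its samples above 4.64. limma 3.58.1 (lmFit and eBayes, R 4.3.3) was used with line as a block, and p-values were Benjamini-Hochberg adjusted over all genes of a fit at a threshold of 0.05. The block follows the reference sample each treated sample names in its description. The LY294002 fit was tested on simulated data at day 5; the Dox fit was not. Separate cultures are not stated, so p-values measure only the spread between these samples. The members and lists were chosen with earlier results of these data known. The 6 members and the 6 genes most alike were named. From each list, genes were named among those that passed with the 4 smallest p per direction and the 4 largest median Dox differences. Not every gene that met this rule is named. Any other gene named was chosen after its values were seen. Alternatives covered the filter, centring, quantile normalization, probe set choice, the prior, the block and each sample left out.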

Additional observations from a re-analysis of the deposited data

How the results depend on the processing

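The count of 5 members at least 2-fold higher in all 3 Dox samples, the count of 6 with a smaller difference in the p110 alpha line and the 2-cell list's count of 10 at both days were unchanged with centring, quantile normalization and the mean over probe sets. The last was 5 among genes that pass the floor without the Max-null Dox arrays, since fewer genes are then tested, an alternative chosen after seeing the data. With LY294002, 0 members passed under all 17 alternatives, but Zfp352 was tested in only 13 of them. It fell out with the stricter floor, the mean over probe sets, and without untreated parental replicate 2 or T58A c-Myc day 5. No member was tested there, so none could pass. The change of Zfp352 at day 5, which did not pass, turned from -0.02 to 0.009 with each array centred on its median. Where it was still tested with 1 sample left out, it ran between -0.11 and 0.07. It was above 0 without parental day 5 (0.0712) or wild-type c-Myc day 5 (0.0672). At day 2, 4099 genes passed in the fit with line as a block, against 2663 with no replicate block and 2195 with 11 samples including the pair of parental replicate 1. Leaving out 1 sample gave 2174 to 3975, with the lowest counts without untreated wild-type c-Myc (2174), its day 2 sample (2409) and parental day 2 (2636). At day 5 the 5922 genes stayed within 1.5 times in every alternative (4215 to 5994 with 1 sample left out). With Dox, 0 genes passed with both lines, 1455 in the Max-null line alone, an alternative chosen after seeing the data, and 0 to 1422 with 1 sample left out (54 without day 4, 1399 without untreated and 1422 without Dox p110 alpha cells). The cause was not tested. The number of arrays limits the precision. In EBRTcH3 cells 5 members lay near background and Zfp352 close to the floor, so they give no reading of small changes there.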

Other observations

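Genes of the 2-cell list that had a level above background without Dox gave further values with LY294002; they were chosen after their values were seen and have no test in 2i. AF067061, a gene on chromosome 13 like the Tcstv genes, had 5.37 with LY294002 at day 5 in 2i medium, against 9.04 untreated in 2i. In serum its difference was -1.45 in parental replicate 1 at day 5, and -1.82 at day 2 and -2.31 at day 5 in parental replicate 2, while the c-Myc lines ran between -0.39 and 0.32. AF067061 did not pass in the serum fit, with an adjusted p in limma of 0.301 at day 2 and 0.0981 at day 5. Usp17la, a deubiquitinase gene, had 3.34 with LY294002 in 2i, against 6.84 untreated in 2i. Arg2 differed by -1.74 in the same pair. Other genes of the list above the floor in untreated 2i differed less there, Obox6 by -0.97, Slc34a2 by 0.16 and Ddit4l by 0.03. Of 12632 genes, 2.23% were at least 2-fold lower in this pair.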
